A study of Mus musculus with 8 samples.

Results

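Antigen-presenting cells cut proteins into peptides in endosomes and lysosomes, and 10 genes of that step were followed here in dendritic cells of the mouse thymus. They were chosen by name, as the probes whose accession maps to Ctsb, Ctsc, Ctsd, Ctsh, Ctsk, Ctsl, Ctss, Ctsz, Lgmn and Ifi30, out of 37208 genes or accessions on the array. All 10 had a probe, and 9 passed the filter on dim probes. The cells came from thymus and were sorted on Sirpa, an inhibitory surface receptor carried by one subset, and on maturation status. The study asked about CD40 in dendritic cell maturation and in how regulatory T cells develop. RNA was hybridised to 8 one-colour (Cy3) Agilent arrays on 1 slide, 2 per group. Mature Sirpa-positive cells were replicates 1 and 6 by the number in the title, immature Sirpa-positive cells 3 and 5, mature Sirpa-negative cells 2 and 8, and immature Sirpa-negative cells 4 and 7, and values are given in that order. Summed signals of marker genes are instead given with the lower of the 2 arrays first. The sources used here give no strain, age, treatment or maturation marker, and do not say that each array had its own mice. What the p-values measure is therefore the spread among these 8 samples, and that spread may be technical.

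MHC class II molecules are loaded in late endosomes, where proteases trim both the antigen and the invariant chain (Cd74) that blocks the binding groove until it is degraded stepwise. Cathepsins of the papain family are cysteine proteases made as inactive precursors, while cathepsin D is an aspartic protease and legumain cuts after asparagine. Ifi30 encodes GILT, a thiol reductase and not a protease, which opens disulfide bonds so that proteases can reach the chain. In the thymus, the peptides that dendritic cells present take part in deleting self-reactive thymocytes and in selecting regulatory T cells.

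The 75th percentile of the scanner's background-subtracted signal lay between 147 and 313 intensity units over the 8 arrays, and 52.9% to 65.5% of spots were well above background. No spot (0) was saturated, and the brightest of these genes, Ifi30, reached at most 13.6% of the scanner's limit. Levels below are log2 of the signal over the array's 75th percentile, so each unit is a doubling, and they are compared between groups for one probe at a time. The sort followed its labels, with Sirpa signal 28.3-fold higher in the Sirpa-positive subset among mature cells and 114-fold among immature cells. Ccr7, the chemokine receptor of mature dendritic cells, was 71.7-fold higher in mature than in immature Sirpa-positive cells and 51.5-fold higher in Sirpa-negative ones. All 5 general dendritic cell markers (Flt3, Itgax, Zbtb46, H2-Ab1 and Cd74) were well above background on every array. Differences were tested in 1 limma model over the 8 arrays, with Benjamini-Hochberg adjustment over 24148 genes and a threshold of 0.05, and are given with their standard error (SE). Rises and falls with maturation are differences between cells sorted as mature and cells sorted as immature.

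Among immature cells, 7 of the 9 tested genes were higher in the Sirpa-positive than in the Sirpa-negative subset, and among mature cells 4 were. Over all genes tested, 7.23% and 3.38% were higher in these comparisons. With maturation, 5 rose in Sirpa-negative cells, beside 9.23% of all genes. In Sirpa-positive cells none (0) changed past the threshold, where 6.89% of all genes did. Of the 9 genes, Lgmn had the largest rise, 9.77-fold, and Ctsd the largest subset difference, 56.2-fold among immature cells. The comparisons share arrays, so the low levels on the immature Sirpa-negative arrays enter both the maturation and the subset result.

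**Figure D1:**
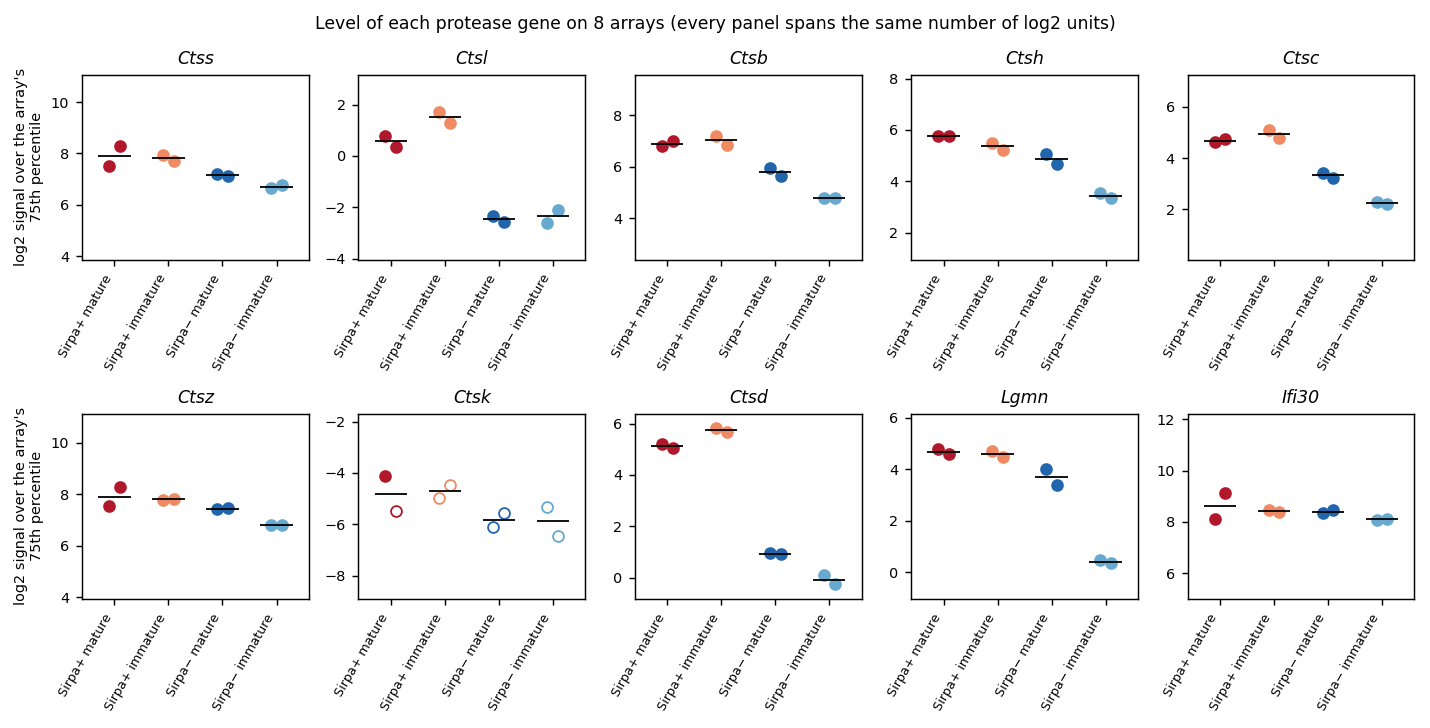
Log2 signal over the array's 75th percentile (vertical axis) of the probe of each gene on the 2 arrays of each of the 4 groups. Points are arrays, lines are group means, and open points were not well above background. Lgmn is low on the 2 immature Sirpa-negative arrays alone, Ctsd and Ctsl are low on all 4 Sirpa-negative arrays, and Ctsk is open on 7 of 8 arrays.

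Lgmn encodes legumain, the asparaginyl endopeptidase, which can open a protein antigen or the invariant chain with a first cut and activates some cathepsins. Its level was 4.78 and 4.59 in mature Sirpa-positive cells, 4.73 and 4.49 in immature Sirpa-positive cells, 3.999 and 3.38 in mature Sirpa-negative cells and 0.46 and 0.34 in immature Sirpa-negative cells. The immature Sirpa-negative arrays thus lay far below the other 6, and the Sirpa-positive groups overlapped each other. Lgmn was higher in mature than in immature Sirpa-negative cells by 3.29 ± 0.256 (log2, SE, n = 2 arrays per group, limma adjusted p = 0.000646). In Sirpa-positive cells the difference was 0.08 ± 0.256 (adjusted p = 0.912), with a 95% interval of -0.53 to 0.68. Between the subsets, Lgmn was 18.4-fold higher in Sirpa-positive cells among immature cells (4.20 ± 0.256, adjusted p = 0.000104). Among mature cells the groups did not overlap, but the difference of 0.99 ± 0.256 missed the threshold (adjusted p = 0.0795).

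Ctsd encodes cathepsin D, the aspartic endopeptidase of the lysosome. Its level was 5.19 and 5.06 in mature Sirpa-positive cells, 5.82 and 5.66 in immature Sirpa-positive cells, 0.95 and 0.92 in mature Sirpa-negative cells and 0.11 and -0.26 in immature Sirpa-negative cells. No 2 groups overlapped, and the order was Sirpa-positive immature, Sirpa-positive mature, Sirpa-negative mature and Sirpa-negative immature. Sirpa-positive over Sirpa-negative, it was 18.2-fold higher among mature cells (4.19 ± 0.211, adjusted p = 0.000101) and 56.2-fold higher among immature cells (5.81 ± 0.211, adjusted p = 2.37e-05). It was 2.01-fold higher in mature than in immature Sirpa-negative cells (adjusted p = 0.0191). In Sirpa-positive cells the difference of -0.62 ± 0.211 missed the threshold (adjusted p = 0.151). The array carries a second Ctsd probe, which gave 6.53 ± 0.268 for the subset difference among immature cells (adjusted p = 4.02e-05) and 4.82 ± 0.268 among mature cells (adjusted p = 0.000175). For maturation in Sirpa-negative cells that probe gave 0.96 ± 0.268, just short of the threshold (adjusted p = 0.0522), so on this result the probes fell on different sides of it.

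Ctsl encodes cathepsin L, which in the mouse degrades the invariant chain in cortical thymic epithelium. Its level was 0.77 and 0.36 in mature Sirpa-positive cells, 1.73 and 1.28 in immature Sirpa-positive cells, -2.35 and -2.57 in mature Sirpa-negative cells and -2.59 and -2.11 in immature Sirpa-negative cells. The 4 Sirpa-positive arrays lay above all 4 Sirpa-negative ones, and within the Sirpa-negative subset the mature and immature arrays overlapped. Ctsl was 8.11-fold higher in Sirpa-positive cells among mature cells (3.02 ± 0.278, adjusted p = 0.00113; 1.97 on the log2 scale under normexp background correction with quantile normalization) and 14.5-fold higher among immature cells (3.86 ± 0.278, adjusted p = 0.000209). With maturation it differed by -0.94 ± 0.278 in Sirpa-positive cells (adjusted p = 0.101) and by -0.11 ± 0.278 in Sirpa-negative cells (adjusted p = 0.839). Beside this gene, the summed signal of 6 thymic epithelium markers was 8.84 and 12.8 times the array's 75th percentile in immature Sirpa-positive cells and 2.30 and 3.09 in immature Sirpa-negative cells. Among mature cells that sum was 4.25 and 4.72 in Sirpa-positive and 4.61 and 4.71 in Sirpa-negative cells. Of the 4 of these markers that were tested, 2 were higher in Sirpa-positive cells among immature cells and 0 among mature cells. Psmb11, the proteasome subunit that defines cortical epithelium, was not well above background on any Sirpa-positive array, and was on at least 1 array of each Sirpa-negative group. The part of epithelial RNA in the Ctsl difference was not tested.

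Ctss encodes cathepsin S, which removes the last part of the invariant chain in dendritic cells and B cells. Its level was 7.51 and 8.29 in mature Sirpa-positive cells, 7.93 and 7.70 in immature Sirpa-positive cells, 7.20 and 7.10 in mature Sirpa-negative cells and 6.65 and 6.75 in immature Sirpa-negative cells. The 4 Sirpa-positive arrays were again above the 4 Sirpa-negative ones. Among immature cells the difference was 2.16-fold (1.11 ± 0.282, adjusted p = 0.0462), and among mature cells it was 0.75 ± 0.282 and missed the threshold (adjusted p = 0.231). The call among immature cells was lost without immature Sirpa-positive replicate 3 (adjusted p = 0.265) or 5 (0.127), immature Sirpa-negative replicate 4 (0.171) or 7 (0.128), or mature Sirpa-negative replicate 2 or 8 (0.0698 each). Maturation differences were 0.08 ± 0.282 in Sirpa-positive cells (adjusted p = 0.911) and 0.45 ± 0.282 in Sirpa-negative cells (adjusted p = 0.346).

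Ctsb, Ctsc and Ctsh encode cysteine cathepsins with broad trimming activity: cathepsin B is an endopeptidase and carboxydipeptidase, cathepsin C a dipeptidyl peptidase that also activates granule serine proteases, and cathepsin H an aminopeptidase. Ctsb had levels of 6.82 and 6.98 in mature Sirpa-positive cells, 7.21 and 6.85 in immature Sirpa-positive cells, 5.96 and 5.66 in mature Sirpa-negative cells and 4.79 and 4.77 in immature Sirpa-negative cells. Ctsc had levels of 4.61 and 4.74 in mature Sirpa-positive cells, 5.10 and 4.80 in immature Sirpa-positive cells, 3.44 and 3.24 in mature Sirpa-negative cells and 2.29 and 2.20 in immature Sirpa-negative cells. Ctsh had levels of 5.75 and 5.77 in mature Sirpa-positive cells, 5.49 and 5.23 in immature Sirpa-positive cells, 5.08 and 4.67 in mature Sirpa-negative cells and 3.54 and 3.35 in immature Sirpa-negative cells. In all 3 genes the immature Sirpa-negative arrays were lowest, the mature Sirpa-negative arrays came next and the Sirpa-positive arrays lay above both. In Sirpa-negative cells, mature over immature, Ctsb was 2.05-fold (1.03 ± 0.222, adjusted p = 0.0211), Ctsc 2.13-fold (1.09 ± 0.206, adjusted p = 0.0135) and Ctsh 2.70-fold (1.43 ± 0.225, adjusted p = 0.00688) higher. Among immature cells, Sirpa-positive over Sirpa-negative, Ctsb was 4.76-fold, Ctsc 6.49-fold and Ctsh 3.77-fold higher (adjusted p = 0.000806, 0.000276 and 0.00174). Among mature cells Ctsb was 2.13-fold higher (adjusted p = 0.0346) and Ctsc 2.53-fold (adjusted p = 0.0113), while Ctsh differed by 0.88 ± 0.225 and missed the threshold (adjusted p = 0.0761). In Sirpa-positive cells, none of these genes passed with maturation, with log2 differences of -0.13 for Ctsb, -0.27 for Ctsc and 0.40 for Ctsh.

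Ctsz encodes cathepsin Z, a carboxypeptidase, and Ifi30 the reductase GILT. Ctsz had levels of 7.56 and 8.27 in mature Sirpa-positive cells, 7.79 and 7.81 in immature Sirpa-positive cells, 7.44 and 7.45 in mature Sirpa-negative cells and 6.80 and 6.82 in immature Sirpa-negative cells. Its subset difference among immature cells, 0.99 ± 0.257, lay at the edge of the threshold (adjusted p = 0.0501). Alternatives in which it passed included normexp with quantile normalization (adjusted p = 0.000116), quantile normalization alone (0.00215) and the authors' value table (0.000576). The maturation difference of Ctsz in Sirpa-negative cells, 0.64 ± 0.257 (adjusted p = 0.148), also passed in these 3 settings. Ifi30 had levels of 8.10 and 9.12 in mature Sirpa-positive cells, 8.47 and 8.40 in immature Sirpa-positive cells, 8.34 and 8.46 in mature Sirpa-negative cells and 8.09 and 8.10 in immature Sirpa-negative cells. The 2 mature Sirpa-positive arrays lay far apart (SD 0.72) and their span held all other values but 1, so no order of the groups can be read for Ifi30. Its log2 differences lay between 0.18 and 0.34 over the 4 comparisons (adjusted p from 0.573 to 0.862), and for the subset difference among immature cells the 95% interval ran from -0.43 to 1.10. That subset difference passed in 3 of 19 alternative settings: it was 0.86 under normexp with quantile normalization (adjusted p = 0.00268), 0.86 under quantile normalization alone (adjusted p = 0.0281) and 0.79 in the authors' value table (adjusted p = 0.0130).

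Ctsk encodes cathepsin K, the collagen-cutting protease of osteoclasts. Its probe was well above background on 1 of 8 arrays, mature Sirpa-positive replicate 1, and was not tested. Its signal there was 16.5 intensity units, and between 2.32 and 14.0 on the other 7 arrays.

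The promoters of these genes were searched for CACGTG, the E-box at the core of the sites bound by the lysosomal regulator TFEB and its relatives. RefSeq windows on GRCm38.p6, 250 bases before to 50 after a start, were available for 8 of the 10 genes, Lgmn with 2 starts. The search covered both strands, and CACGTG is its own reverse complement. Of the 9 windows, 4 held it, those of Ctsd, Ifi30, Ctsl and one start of Lgmn, against 7.15% of 32851 promoter windows of the same length. The longer TCACGTGA, which contains CACGTG, was in 2 of the 9 windows (Ctsd and Ifi30) and in 0.974% of all windows. The windows printed here all hold CACGTG. They are those of Ctsd, with the largest subset difference of the 9 genes, Lgmn, with the largest rise, and Ifi30, which passed in no comparison (0) of the main model. Ctsz also passed in no comparison of the main model, and its window, not printed, held 0 matches. Printed sequences run 5′ to 3′ on the gene's strand with CACGTG in capitals.
Ctsd, chr7:142387778-142388077, minus strand: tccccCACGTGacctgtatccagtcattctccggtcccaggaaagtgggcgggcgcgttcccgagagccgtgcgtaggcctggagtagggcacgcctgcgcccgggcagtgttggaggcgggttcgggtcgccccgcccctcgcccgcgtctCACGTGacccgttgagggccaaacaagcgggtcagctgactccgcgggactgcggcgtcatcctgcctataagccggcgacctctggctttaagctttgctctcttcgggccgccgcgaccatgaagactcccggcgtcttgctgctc
Lgmn, chr12:102439043-102439342, minus strand: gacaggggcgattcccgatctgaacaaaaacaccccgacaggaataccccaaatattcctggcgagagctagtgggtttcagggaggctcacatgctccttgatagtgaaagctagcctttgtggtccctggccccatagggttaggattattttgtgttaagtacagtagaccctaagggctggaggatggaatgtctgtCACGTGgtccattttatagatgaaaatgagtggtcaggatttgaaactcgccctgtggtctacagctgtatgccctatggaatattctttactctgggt
Ifi30, chr8:70766614-70766913, minus strand: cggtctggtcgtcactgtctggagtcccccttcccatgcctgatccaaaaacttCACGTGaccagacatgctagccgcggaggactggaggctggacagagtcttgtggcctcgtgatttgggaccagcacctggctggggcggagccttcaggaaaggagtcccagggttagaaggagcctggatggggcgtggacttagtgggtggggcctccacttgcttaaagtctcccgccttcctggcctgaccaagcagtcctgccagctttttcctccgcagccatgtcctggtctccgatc
Ctsd has 2 matches, at positions -245 and -98 from the start site, Lgmn 1 at -49 in the window printed and 0 in that of its other start, and Ifi30 1 at -196. A match is a run of letters and does not show binding. GGAAGT, the core bound by ETS factors such as PU.1, was in the windows of Ctsk, Ctss and Ctsc (23.8% of all windows). The core of the interferon-stimulated response element was in that of Ctss (3.44% of all windows). TGANTCA (AP-1) and the NF-kB motif were in 0 of the 9 windows, against 7.81% and 0.411% of all windows.

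With maturation of Sirpa-negative cells, of the 9 tested genes 5 rose (Lgmn, Ctsh, Ctsc, Ctsd and Ctsb), 0 fell and 4 did not pass (Ctsl, Ctss, Ctsz and Ifi30). Over all genes 16.5% passed in this comparison, 9.23% rising and 7.24% falling. The members' median log2 difference was 1.01, beside -0.01 over all genes, and 8 of 9 were above 0. Lgmn and Ctsh passed in all 19 alternative settings tried. Ctsb missed the threshold without mature Sirpa-negative replicate 2 (adjusted p = 0.106) or immature Sirpa-negative replicate 4 (0.0856) or 7 (0.0846). Ctsc missed it without the same 3 arrays (0.0714, 0.0570 and 0.0646), and Ctsd without immature replicate 7 (0.0998) or mature replicate 2 (0.0823) or 8 (0.0587). The count was 2 without mature replicate 2 or immature replicate 7 and 3 without immature replicate 4. It was also 2 from the 4 Sirpa-negative arrays alone and with dim probes kept.

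Sirpa itself was 2.85-fold higher in mature than in immature Sirpa-negative cells (1.51 ± 0.224, adjusted p = 0.00555). Of 7 markers of type 2 dendritic cells, a list that includes Sirpa, 2 were higher and 2 lower (median log2 difference 0.008). Their summed signal was 484 and 545 times the array's 75th percentile in mature and 505 and 545 in immature Sirpa-negative cells. In immature Sirpa-positive cells it was 499 and 534, although 6 of the 7 markers were higher there than in immature Sirpa-negative cells. The sum therefore does not tell the immature subsets apart, and nothing on admixture can be read from it. The type 1 dendritic cell markers (6 of 7 on the array) summed to 135 and 142 in mature and 221 and 228 in immature Sirpa-negative cells, in the same units. Of these 6, 0 were higher and 2 lower in mature cells. Thymocyte and T cell markers also moved with this comparison. The summed signal of 12 thymocyte and T cell markers was 65.6 and 89.9 in mature and 27.2 and 40.3 in immature Sirpa-negative cells, in units of the array's 75th percentile, and 9 of the 12 were higher. The part of such cells, or of Sirpa-positive cells, in the result was not tested. The macrophage and monocyte markers (11 of 12 on the array) summed to 16.2 and 18.6 in mature and 14.6 and 15.6 in immature Sirpa-negative cells, and C1qc and Mrc1 were not well above background in either group. In sorted bulk samples, fewer cells of a type and less RNA per cell cannot be told apart.

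With maturation of Sirpa-positive cells, 0 of the 9 tested genes rose and 0 fell in limma's test, where 6.89% of all genes passed, 4.35% rising and 2.54% falling. At an unadjusted p under 0.05 there were 2, Ctsl (-0.94 ± 0.278) and Ctsd (-0.62 ± 0.211), and 4889 of the 24148 genes, a share near that of the members. The median log2 difference of the 9 genes was 0.08, beside 0.03 over all genes. The 95% intervals of Ctsb, Ctsc, Ctsh, Ctss, Ctsz, Lgmn and Ifi30 all held 0, with bounds between -0.76 and 0.94. For Ctss, Ctsz and Ifi30 the mature Sirpa-positive arrays differed, with replicate 6 the higher each time. Beside Ctsd and Ctsl, the macrophage and monocyte markers summed to 380 and 396 in mature and 475 and 617 in immature Sirpa-positive cells, in units of the array's 75th percentile, and 2 of the 11 tested fell. The thymocyte and T cell markers summed to 57.7 and 59.7 in mature and 40.0 and 47.0 in immature Sirpa-positive cells, and 5 of 12 rose. The part of either cell type in these values was not tested.

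**Figure D2:**
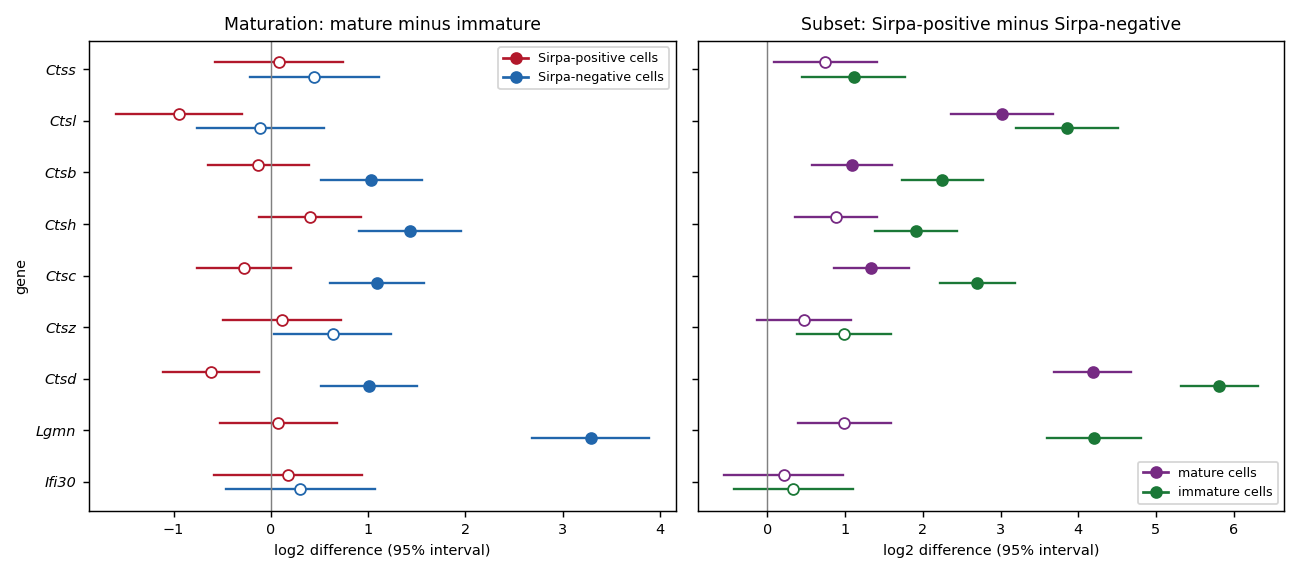
Log2 differences (horizontal axis) of the 9 tested genes with 95% intervals from the limma model, mature minus immature in each subset (left) and Sirpa-positive minus Sirpa-negative in each maturation state (right). Filled points passed an adjusted p of 0.05. On the left 5 points of Sirpa-negative cells are filled and 0 of Sirpa-positive cells, and on the right 4 of mature and 7 of immature cells.

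The maturation effects of the subsets were then set against each other. The difference between them, Sirpa-positive minus Sirpa-negative, was below 0 for all 9 genes, with a median of -1.03 beside 0.02 over all genes. In limma's test of this difference 0 of 9 genes passed, as did 0% of the 24148 genes. At an unadjusted p under 0.05 there were 5 of the 9 and 1946 of all genes. Lgmn differed by -3.21 ± 0.362 (95% interval -4.06 to -2.36), and its adjusted p of 0.0688 equals the smallest that any gene reached. Ctsd differed by -1.63 ± 0.299 (adjusted p = 0.118), Ctsc by -1.36 ± 0.291 (adjusted p = 0.165), Ctsb by -1.16 ± 0.314 (adjusted p = 0.303) and Ctsh by -1.03 ± 0.318 (adjusted p = 0.401). A dependence of the rise on the subset was therefore not established at this threshold, although Lgmn passed in 4 of 18 alternative settings.

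Among mature cells, 4 of 9 genes (Ctsd, Ctsl, Ctsc and Ctsb) were higher in the Sirpa-positive than in the Sirpa-negative subset and 0 were lower, where 5.47% of all genes passed, 3.38% higher and 2.1% lower. Their median log2 difference was 0.99, beside -0.07 over all genes. Ctsd and Ctsl passed in all 19 alternative settings. Ctsc missed the threshold without mature Sirpa-negative replicate 8 (adjusted p = 0.0668) or mature Sirpa-positive replicate 6 (0.0702), which left 2 called. Ctsb missed it without any 1 of the 8 arrays, with an adjusted p of 0.159 without mature Sirpa-positive replicate 6, 0.0887 without replicate 1, 0.0668 and 0.153 without mature Sirpa-negative replicates 2 and 8, and 0.0577 to 0.0589 without an immature array. With the row of the slide as a block its adjusted p was 0.0744.

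Among immature cells 7 of 9 genes (Ctsd, Lgmn, Ctsl, Ctsc, Ctsb, Ctsh and Ctss) were higher in Sirpa-positive cells and 0 were lower, where 11.6% of all genes passed, 7.23% higher and 4.39% lower. The median log2 difference was 2.25, beside -0.11 over all genes. All of these but Ctss passed in each of the 19 alternative settings. Each row of the slide had 1 array of every group. All 9 genes had the same sign in both rows, which had to follow because the groups did not overlap for any of the 9 genes. The share of all genes whose groups did not overlap is not given here, so this count is no result about the members. For Ctsd the difference was 5.92 in the first and 5.71 in the second row, and for Lgmn 4.14 and 4.26.

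Macrophage and monocyte markers moved with both subset comparisons. The 11 on the array summed to 380 and 396 in mature Sirpa-positive cells, against 16.2 and 18.6 in mature Sirpa-negative cells. In immature Sirpa-positive cells it was 475 and 617, against 14.6 and 15.6 in immature Sirpa-negative cells. All 11 tested markers were higher in Sirpa-positive cells among immature cells and 9 of 11 among mature cells. Macrophages are rich in these proteases, and some Sirpa-positive dendritic cells also express several of the markers listed. The part of such cells in the subset differences was not tested.

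**Figure D3:**
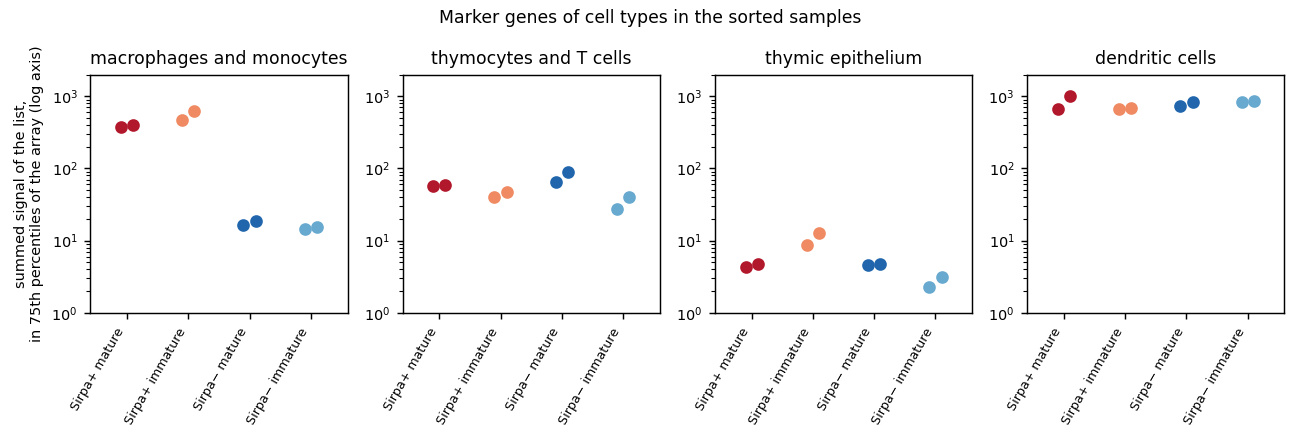
Summed signal of each marker list on each array, in multiples of the array's 75th percentile (log axis). The macrophage and monocyte list lies between 380 and 617 on the 4 Sirpa-positive arrays and between 14.6 and 18.6 on the 4 Sirpa-negative arrays, and the thymocyte list is higher in mature than in immature cells of both subsets.

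The genes most like the 3 widest-ranging members were sought by Pearson correlation of log2 levels over the 8 arrays, among 13838 genes with a symbol. The 8 arrays fall into 4 groups, so a high coefficient mostly restates the group means. For Ctsd they were Itgb5, an integrin subunit, Ifit3b, an interferon-induced gene with a close relative in Ifit3, and Selenop, a selenium carrier (0.999, 0.999 and 0.998). For Lgmn they were Sdc4, a heparan sulfate proteoglycan, the transcription factor gene Irf4 and Grina (0.996, 0.995 and 0.993). For Ctsl they were Apoc1, an apolipoprotein, Tmem41a and Clec4a1, a myeloid lectin (0.996, 0.995 and 0.994). Irf4 had mean levels of 1.96 in mature Sirpa-positive, 1.68 in immature Sirpa-positive, 0.73 in mature Sirpa-negative and -2.90 in immature Sirpa-negative cells.

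The setting of these proteases was described by 9 lists of genes, 138 entries of which 136 were on the array. In Sirpa-negative maturation 1 of 16 other lysosomal proteases rose, Scpep1, a serine carboxypeptidase, by 5.95-fold (adjusted p = 0.000937), and 0 fell. The median of that list was 0.15. Of 13 genes of the lysosomal membrane and of lipid transfer, 3 rose and 1 fell, with Cd63, a tetraspanin of late endosomes, up 49.0-fold and Lamp1, a lysosomal membrane glycoprotein, up 7.97-fold. Of 12 sorting genes 3 rose and 0 fell, among them Gga2, an adaptor for cargo leaving the Golgi (4.19-fold), and Sort1, the sortilin receptor (7.32-fold). The proton pump list had 1 riser, Atp6v0a1 (6.69-fold), and 2 falls of 20. Of 26 lysosomal glycosidases, sulfatases and lipid hydrolases 1 rose, Gaa, acid alpha-glucosidase (4.47-fold), and 4 fell, among them Man2b1, a mannosidase (2.66-fold), with a list median of -0.41. Of 12 regulators 1 rose, the Rag GTPase gene Rragd (4.14-fold), and 2 fell. Over all genes 9.23% rose and 7.24% fell in the same comparison, near the shares of these lists together.

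Of 11 protease inhibitor genes tested, 3 rose and 0 fell with maturation in Sirpa-positive cells (median log2 difference 0.52), and 6 rose and 0 fell in Sirpa-negative cells (1.19). Over all genes 4.35% rose in Sirpa-positive and 9.23% in Sirpa-negative cells. Serpinb9, known as an inhibitor of granzyme B, rose 18.1-fold in Sirpa-positive and 13.1-fold in Sirpa-negative cells. Serpinb6b rose 42.7-fold in Sirpa-positive and 14.7-fold in Sirpa-negative cells. Serpinb1a, an inhibitor of neutrophil serine proteases, rose 23.3-fold in Sirpa-negative cells. The inhibitors named here are serpins, but at least 1 of the 6 that rose in Sirpa-negative cells is not. The textbook cystatin inhibitor of most cysteine cathepsins, Cst3, did not pass in either comparison. Its adjusted p was 0.292 in Sirpa-positive and 0.430 in Sirpa-negative cells. In Sirpa-positive cells 0 genes rose in the other lists, with 1 fall in the proton pump list and 2 among glycosidases and lipid hydrolases.

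Between the subsets, among immature cells 7.23% of all genes were higher in Sirpa-positive cells and 4.39% lower. Of 16 other lysosomal proteases 5 were higher and 0 lower, with Ctsa, the serine carboxypeptidase cathepsin A, 14.9-fold higher. Dpp7, a dipeptidyl peptidase, was 3.88-fold higher, and the tripeptidyl peptidase gene Tpp1 at least 3.36-fold higher (not well above background in Sirpa-negative cells). Of 13 membrane and lipid transfer genes, 6 were higher and 0 lower, with Cd63 at 43.2-fold, Lamp1 at 8.19-fold and the cholesterol exporter Npc1 at 4.38-fold. The proton pump had 6 higher and 1 lower of 20, with the d2 subunit gene Atp6v0d2 higher by at least 76.2-fold. Among 26 hydrolases 8 were higher and 4 lower, with the lysosomal phospholipase Pla2g15 at 10.6-fold. Of the 6 tested oxidase genes 2 were higher and 1 lower, and Cybb, the catalytic subunit of the phagocyte NADPH oxidase, was 33.9-fold higher. Regulators had 4 higher and 1 lower of 12, among them the TFEB relatives Tfec, at least 35.9-fold, and Mitf, 7.93-fold with 1 of 2 Sirpa-negative arrays above background. Igf2r, the receptor that carries mannose-6-phosphate tagged enzymes to lysosomes, went the other way and differed by -3.59 on the log2 scale, Sirpa-positive minus Sirpa-negative.

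Inhibitors were split among immature cells, with 3 higher and 3 lower of 11. Cst7, cystatin F, which acts on cathepsin C, was 60.1-fold higher in Sirpa-positive cells, and Cst3 was 2.90-fold lower (adjusted p = 0.00658, or 0.0542 without immature Sirpa-positive replicate 3). Among mature cells Ctsa stayed 14.7-fold higher in Sirpa-positive cells, Tcirg1, a pump subunit, 5.34-fold, Cybb 27.9-fold and Cst7 43.0-fold, and Igf2r 5.11-fold lower. There 3 of 16 other proteases, 3 of 20 pump genes and 3 of 13 membrane genes were higher and 0 lower. Over all genes 3.38% were higher and 2.1% lower among mature cells. Of the class II molecule and its chaperones, 0 were higher and 1 lower of 10 in each subset comparison, H2-Ob, a chain of the peptide exchange inhibitor H2-O (adjusted p = 0.0209 among immature and 0.0439 among mature cells, a call among mature cells that was lost in 12 of 19 alternative settings). With maturation in Sirpa-negative cells 1 of 10 fell, H2-DMa, a chain of the peptide exchange factor H2-M (adjusted p = 0.0288, lost in 10 of 19). The list's median log2 difference between the subsets was -0.17 among immature and 0.12 among mature cells. Under normexp with quantile normalization these log2 differences shrank by over 1.5 times for the dim probes of Tpp1 (0.84 among immature cells), Atp6v0d2 (4.12), Tfec (3.19) and Mitf (1.51), and in Sirpa-negative maturation for Sort1 (1.68) and Rragd (1.10), and all still passed. For Tpp1, Atp6v0d2 and Tfec the normexp values lay below the folds given as "at least", which are bounds under the main processing only.

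**Figure D4:**
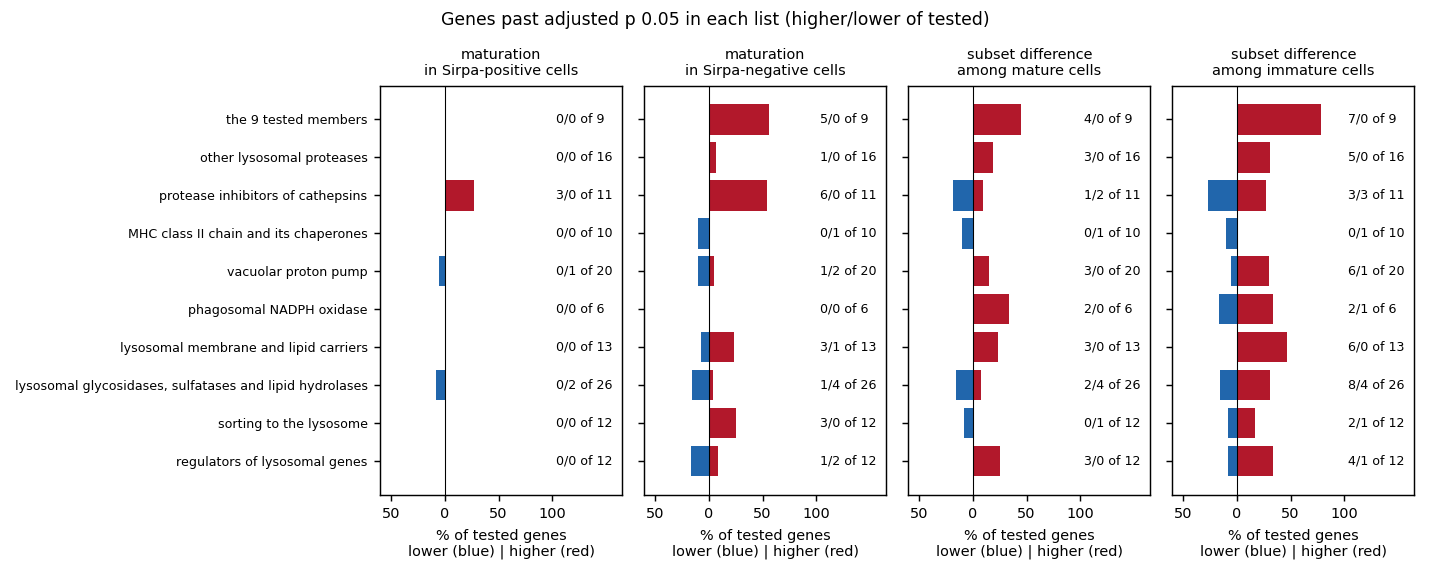
Share of tested genes of each list past an adjusted p of 0.05 (horizontal axis, percent), higher in red to the right and lower in blue to the left, with counts as higher/lower of tested. The row of the 9 tested members has 7 genes higher in Sirpa-positive immature cells and 0 in Sirpa-positive maturation.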

How the data were processed

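RNA of 8 samples was measured on 1-colour arrays. Per the file headers, the deposited spot intensity values came from Feature Extraction 10.7.3.1 (array design on mm9), while the submitters' processing notes name version 10.5 and limma. The value table, also deposited by the authors, is on a log2 scale as judged from its range. Its sorted columns differ by at most 0.126, its column medians are 5.99 to 6.01, and its ranks follow the scanner's median signal on every array with no centring of genes seen. Whether background was subtracted in it is unknown. Spots marked as outliers (110 to 270 per array) were set missing, spots of a probe were averaged, and log2 processed signals were scaled to each array's 75th percentile. A group with both arrays well above background sufficed to keep a probe, which left 33689. RefSeq (GRCm38.p6) gave a symbol to 26582 of 55681 probes, and the brightest kept probe stood for a gene. Differences were tested with limma 3.58.1 in R 4.3.3, all arrays in one fit of 4 group means, with 4 residual and 3.26 prior degrees of freedom. The code was tested on simulated data. The number of arrays limits the precision.

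"At least" marks folds where neither array of the dimmer group was well above background: the brighter mean was set against, per array, the larger of the dim signal and the lowest signal well above background. Lists are described by counts, with no test of the list. Up to 3 genes per list and comparison with the smallest p were eligible for naming, and of these the text keeps ones that passed in every alternative run, a restriction made after their values were seen, as were the choices to name Cst3, H2-Ob and H2-DMa. The members and lists were chosen with earlier results of these data known. The scanner files used here hold no mean signal, so the planned normexp alternative ran on median signals with an offset of 50.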

Additional observations from a re-analysis of the deposited data

How the results depend on the processing

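Alternatives were run gene by gene for the members, the list genes eligible for naming, Sirpa, Ccr7 and Cst3, and no called direction of these reversed (0). Of the 9 tested members, normexp with quantile normalization called 2 in Sirpa-positive maturation (Ctsd and Ctsl, both lower), 8 in Sirpa-negative maturation, 7 in the mature subset comparison and 2 in the difference between maturation effects. The authors' value table called 7 in the mature subset comparison and 1 in the difference between effects. The difference also had 1 call with probes above background on all 8 arrays and 3 with trended and robust variances. With dim probes kept, or with only the arrays compared, 2 were called in Sirpa-negative maturation and 2 in the mature subset comparison. Leaving out each array in turn gave 2 to 5 calls in Sirpa-negative maturation and 2 to 3 in the mature subset comparison. Leaving out arrays leaves fewer samples, and the cause of the other shifts was not tested. A block for the row of the slide left 0, 5, 3, 6 and 0 members called in the order Sirpa-positive maturation, Sirpa-negative maturation, mature subset, immature subset and difference between effects. Within rows, 68 of 90 member differences lay within the SE of the pooled value and 22 beyond it. Both rows of a difference lie equally far from the pooled value, so they always fall on the same side of that limit. Of the called differences 0 reversed, which had to follow because their groups did not overlap.

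Over all genes, calls in Sirpa-positive maturation numbered 1664, but 430 with dim probes kept, 1062 with the row as a block and 394 to 1544 with an array left out. In Sirpa-negative maturation the 3977 became 1615 with dim probes kept, 2044 from the arrays compared and 1777 to 3657 with an array left out. The mature subset comparison had 1322, against 579 with dim probes kept and 636 to 1264 with an array left out, and the immature one 2806, against 1557 and 1232 to 2771. The difference between effects had 0, against 168 under normexp, 148 in the authors' table, 101 with probes above background on all 8 arrays, 186 with trended and robust variances, 4 with the mean of all probes and 1 with median scaling. Of the calls in Sirpa-positive maturation 63.2% were higher, against 50.4% under normexp. In Sirpa-negative maturation 56.0% were higher, against 47.2% under median scaling and 48.3% under normexp. Median scaling moved the median of all genes in Sirpa-negative maturation to -0.13, against -0.01. The groups share no replicate numbers, so no paired analysis was run, and the slide row was the block used. Replicate numbers 1 to 4 hold 1 array of every group, as do 5 to 8. A block on these numbers was not run, and the row does not stand in for it. With 2 arrays per group, 1 array can decide a call near the threshold.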
